A study of Homo sapiens with 4 samples.

Results

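The array of MCF10A cells carrying Her2 together with mutant PIK3CA was compared with the array of MCF10A cells carrying mutant PIK3CA alone, as a log2 difference for each gene. MCF10A is a non-tumorigenic human breast epithelial line with basal features. Genes were taken from probe sets with exactly 1 gene symbol, which gave 20463 genes, and 7275 of them (35.6%) had a mean of at least 3 over the 4 arrays of the series and were counted. The 4 groups are MCF10A with stable transfection of Her2 and PIK3CA H1047R, of PIK3CA H1047R alone, of Her2 alone, and of LacZ as the control. Their arrays are called the double, PIK3CA, Her2 and LacZ arrays. All were grown untreated in SFIHE medium, and each was measured on 1 array. The labels do not say whether a line was 1 clone or a pool, or which promoter drove a transgene. No difference therefore has a replicate check, no SD can be given, and a gene is called higher or lower only by size, at 1 log2 unit (2-fold) or more.

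Her2, the product of ERBB2, is a receptor tyrosine kinase without a ligand of its own that pairs with the other ERBB receptors and feeds the RAS to MAPK and the PI3K to AKT routes. PIK3CA encodes the catalytic subunit of a PI3K, and H1047R is an activating variant that is frequent in breast cancer. The comparison describes what differs between a line labelled with Her2 and the active kinase and a line labelled with the active kinase alone. The labels do not say whether the first line was made from the second. Breast epithelial cells are held together by cadherins, tight junctions and desmosomes, and loss of these with gain of matrix and mesenchymal genes is known as epithelial to mesenchymal transition (EMT).

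The values of ERBB2 did not follow the labels of the single-gene arrays, and no other introduced gene could be checked. The probe set annotated to ERBB2 and MIR4728 read 7.39 on the double array, 8.48 on the PIK3CA array, 4.29 on the Her2 array and 5.96 on the LacZ array. The difference of -1.09 puts the double array below the PIK3CA array, which is not labelled as carrying Her2. The array labelled Her2 was the lowest, below the LacZ control. GRB7, an adaptor gene beside ERBB2, read 1.84 on the double array, against 4.33 on the PIK3CA array, and 3.74 and 5.28 on the Her2 and LacZ arrays. The other neighbours STARD3, CDK12, MED1, PGAP3 and MIEN1 differed by -0.46 to 0.28. No probe set is named PIK3CA here, so its level was not analysed. Group names below mean the labels, and an exchange of the labels of both single-gene arrays was tried as an alternative.

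Of the 7275 counted genes, 613 were higher by at least 2-fold (8.43%) and 530 lower (7.29%) on the double array than on the PIK3CA array. The median difference was 0.01 and the quartiles were -0.38 and 0.43. At least 4-fold differences were seen in 124 genes upwards and 113 downwards, and at least 8-fold differences in 30 and 31. The lower value lay within 1 log2 unit of the array's median, which is taken here as near background, for 21 of the 613 and 23 of the 530, and there the size of the difference is uncertain. The filter on the mean admits some genes through a high value on 1 array, so counts over measured members are given beside those of the main lists. Without the filter, 1094 of 20463 genes were higher (5.35%) and 720 lower (3.52%) by this measure. In the counts that follow, a gene is higher or lower only at 2-fold or more.

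**Figure D1:**
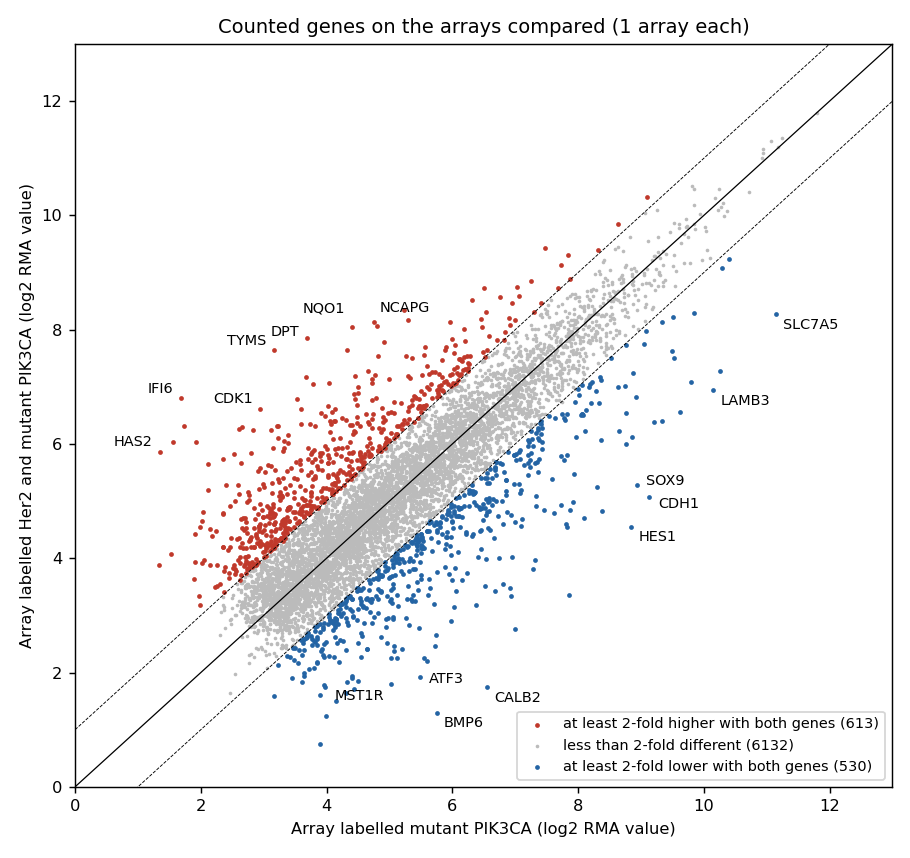
Log2 RMA values of the 7275 counted genes, 1 point a gene, with the double array on the vertical axis and the PIK3CA array on the horizontal axis; the solid line is equality and the dashed lines are 2-fold. The 613 red genes lie above the band and the 530 blue ones below it, with HAS2, IFI6 and TYMS far above and CALB2, BMP6, HES1 and CDH1 far below.

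The Her2 and LacZ arrays were placed by the side of the midpoint between the 2 arrays compared on which they lay. For 385 of the 613 higher genes (62.8%), both the Her2 and the LacZ array lay nearer to the PIK3CA array than to the double array. The same held for 287 of the 530 lower genes (54.2%). For 92 higher genes (15.0%) and 97 lower genes (18.3%), both lay nearer to the double array. The Her2 array alone lay nearer to the double array for 110 higher (17.9%) and 120 lower genes (22.6%), and the LacZ array alone for 26 higher and 26 lower genes. Among the 30 highest differences both lay nearer to the PIK3CA array in 26, and among the 30 lowest in 22. Nearness was judged by the midpoint alone, so it does not show that a single array stood apart. INHBA, counted among the 22, read 3.55 on the double array and 6.81 on the PIK3CA array, with 5.21 and 5.22 on the Her2 and LacZ arrays.

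Genes of the cell division cycle were frequent among the highest differences of counted genes. Of the 30 highest, 9 belong to the lists on mitosis, kinesins, replication, nucleotide supply and recombination repair, and of the 30 lowest 0 do. These lists hold 29, 15, 28, 14 and 8 of the 7275 counted genes, and were chosen with earlier results of these data known. Both sets of 30 were ranked among counted genes only. Of the 9, CDK1, EXO1 and PRIM1 read under 3 on each of the other arrays, so they passed the filter through the double array. TYMS, which makes thymidylate for DNA, read 7.64 on the double array, against 3.16, 3.42 and 2.33 on the PIK3CA, Her2 and LacZ arrays. CDK1, the kinase that drives entry into mitosis, read 6.62, against 2.94, 1.42 and 1.66. KIF20A, a kinesin of cytokinesis, read 7.18, against 3.67, 1.39 and 1.40. In each of these the double array was highest. For CDK1 and KIF20A the PIK3CA array was second, so the order ran from the double to the PIK3CA to the single Her2 and LacZ arrays. The differences were 4.48, 3.67 and 3.50 log2 units, or 22.3-fold, 12.8-fold and 11.3-fold.

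Mitotic genes were higher almost throughout. Of 29 counted genes of the mitotic spindle and checkpoint, 27 were higher and 0 lower, with a median of 1.90, against 0.01 over all counted genes. BUB3, a checkpoint protein, and INCENP, of the chromosomal passenger complex, were the other members, at 0.60 and 0.47. With the members below the filter included, 38 of 41 were higher. NCAPG, a condensin subunit that compacts chromosomes, read 8.13 on the double array, against 4.75 on the PIK3CA array, and 2.79 and 2.36 on the Her2 and LacZ arrays. CCNA2, the S and G2 phase cyclin, read 7.79, against 4.91, 2.41 and 3.09. MKI67, the proliferation marker, read 8.56, against 6.76, 3.39 and 4.60, a difference of 1.81. Kinetochore genes were among the largest, with SPC25 at 3.49 and NUF2 at 3.43, both below the filter, SPC24 at 3.03 and KNL1 at 2.50. SGO1, which guards the cohesion of centromeres, differed by 3.29, and PBK, a mitotic kinase, by 3.12.

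Among 15 counted kinesin motors, 8 were higher and 0 lower, and among 18 measured 11 were higher. Those 8 are motors of cell division, such as KIF11 (2.72), which pushes the spindle poles apart, KIF20B (2.43), KIF4A (2.23), KIF14 (2.15) and KIF23 (2.00). Motors of organelle and vesicle transport stayed under 2-fold, and so did KIF22, a motor of cell division, at 0.88. KIF5B, the conventional heavy chain, read 8.82 on the double array and 9.12 on the PIK3CA array. KIF13B, KIF21A and KIF1B differed by -0.53, -0.33 and -0.24, and KIF3A and KIF16B by 0.70 and 0.16.

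The DNA replication genes followed the same direction. Higher were 22 of 28 counted members, with 0 lower and a median of 1.45; over all 40 measured members the count was 33. PRIM1, the catalytic subunit of primase, read 5.19 on the double array, against 2.11, 2.68 and 2.36 on the PIK3CA, Her2 and LacZ arrays. GINS1, of the replicative helicase, read 5.85, against 2.79, 2.62 and 3.01. In both the other 3 arrays were within 1 log2 unit of each other, whereas CCNA2 and MKI67 were lower on the Her2 and LacZ arrays than on the PIK3CA array. Of the helicase core, MCM6 differed by 2.63, MCM3 by 1.92, MCM4 by 1.61, MCM7 by 1.20, MCM5 by 1.08 and MCM2, below the filter, by 1.12. The clamp loader subunits RFC3, RFC2, RFC5 and RFC4 differed by 2.33, 2.03, 1.90 and 1.42, and the clamp PCNA by 1.52. FEN1, which trims Okazaki fragments, differed by 2.52. POLD1 and POLE, catalytic subunits of the main replicative polymerases, differed by less, at 0.55 and 0.25. Below the filter, with the PIK3CA array near background, were CLSPN (3.90), a checkpoint adaptor of the fork, CDC7 (3.82), the kinase that fires origins, and MCM10 (3.44).

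Nucleotide supply genes were higher in part. TYMS, RRM1 (2.42), TK1 (2.34) and RRM2 (2.07), which make deoxynucleotides, were the 4 of 14 counted members higher, while DTYMK and DUT, of the same route and below the filter, differed by 1.96 and 0.46. Over measured members, 5 of 16 were higher. This grouping by route was drawn after the values were seen. Genes of purine and pyrimidine synthesis from precursors stayed under 2-fold, among them PAICS (0.70), GART (0.25), CAD (0.21) and PPAT (-0.07). In homologous recombination and Fanconi repair, 6 of 8 counted and 19 of 24 measured members were higher, and 3 counted members with exchanged labels. EXO1, a nuclease of end resection, read 6.27 on the double array, against 2.61, 1.63 and 1.86 on the PIK3CA, Her2 and LacZ arrays. UBE2T and FANCI, the conjugating enzyme of the Fanconi pathway and a substrate of it, differed by 3.32 and 3.13. BRCA1 read 4.51, against 2.04, 2.32 and 2.22, below the filter. For 12 of the 24 the PIK3CA array was near background.

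Of 13 counted histones and histone chaperones 7 were higher, 3 of them histones and 4 chaperones, and 0 lower; of 20 measured, 10 were higher. H2BC14, a histone gene outside the list, read 6.32 on the double array, against 1.73 on the PIK3CA array, 2.07 on the Her2 array and 3.73 on the LacZ array. H1-5, a linker histone below the filter, read 6.21, against 1.05, 0.93 and 1.75, and H1-2, H1-4 and H2AC20 differed by 2.29, 1.53 and 1.21. H2BC12, H2BC5, H2AC6, H1-3 and H2BC21 lay between 0.31 and 0.64. Histone transcripts of near-identical copies can share probes, and such values are uncertain. The chaperones HJURP, NASP, CHAF1B and CHAF1A differed by 1.96, 1.75, 1.74 and 1.02. FOXM1 and MYBL2, regulators of the mitotic genes, differed by 2.15 and 1.76, SKP2, which marks the inhibitor CDKN1B for breakdown, by 2.61, and RBL1 by 2.63. CCNE2, below the filter, read 5.17 on the double array, against 1.19, 1.32 and 0.88. The mitogen-driven genes CCND1 and CDK6 were at -0.44 and -0.67, and the inhibitors CDKN1A and CDKN1B at -0.08 and 0.32. In all, 8 of 16 counted and 11 of 25 measured G1 genes were higher and 0 lower. The p53 target list had a median of -0.08 over 19 counted members, with 0 higher and 2 lower. Over all counted genes the shares were 8.43% higher and 7.29% lower.

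Promoters of some of these genes are shown because they hold motifs of the factors known to time the cell cycle. Sequences are from RefSeq with GRCh38.p14 coordinates, and searched windows ran from 250 bases before to 50 after the start of transcription, 300 bases in all, on both strands. The E2F motif was TTTCCCGC, TTTCGCGC, TTTGCCGC or TTTGGCGC, and the CHR motif, used by the DREAM and MYB-MuvB complexes, was TTTGAA. The first 3 stretches hold an E2F motif, from MCM6 (chr2:135876502-135876615, minus strand), RFC3 (chr13:33818074-33818133, plus strand) and GINS2 (chr16:85688955-85689014, minus strand). The others hold a CHR motif, from CDK1 (chr10:60778150-60778209, plus strand), SPC25 (chr2:168890621-168890680, minus strand) and NCAPG (chr4:17810919-17810978, plus strand). Each is read 5′ to 3′ on the strand of its gene and ends before the start of transcription, and capitals mark motif letters on either strand. In MCM6 the capitals join overlapping matches on opposite strands.
MCM6: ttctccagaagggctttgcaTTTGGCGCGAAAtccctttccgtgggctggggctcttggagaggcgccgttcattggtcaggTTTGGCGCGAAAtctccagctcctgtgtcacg
RFC3: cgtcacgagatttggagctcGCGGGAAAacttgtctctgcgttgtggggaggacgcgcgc
GINS2: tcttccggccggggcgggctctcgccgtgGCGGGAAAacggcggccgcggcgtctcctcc
CDK1: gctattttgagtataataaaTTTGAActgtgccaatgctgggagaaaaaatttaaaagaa
SPC25: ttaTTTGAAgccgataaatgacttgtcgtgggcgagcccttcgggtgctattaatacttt
NCAPG: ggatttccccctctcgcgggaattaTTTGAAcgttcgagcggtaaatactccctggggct
An E2F motif lay in 18 of 34 replication promoters (52.9%), against 3.33% of all 27305 promoters and 5.98% of the 6050 counted genes with a promoter in the table. It lay in 3 of 22 recombination repair (13.6%), 1 of 15 nucleotide supply (6.67%) and 2 of 34 mitotic promoters (5.88%). A CHR motif lay in 26 of 34 mitotic promoters (76.5%) and in 10 of 17 kinesin promoters (58.8%), against 15.4% of all promoters and 9.55% of counted genes; only 1 of 34 replication promoters held it. Over all counted genes, an E2F motif lay in 47 of 514 higher genes (9.14%) and 11 of 412 lower genes (2.67%), and a CHR motif in 16.9% of the higher and 6.80% of the lower. CCAAT, the motif of NF-Y, lay in 26 of 34 mitotic promoters, against 35.7% of all promoters. List members without a promoter sequence were not searched. These matches describe the sequences and are not evidence of binding.

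**Figure D2:**
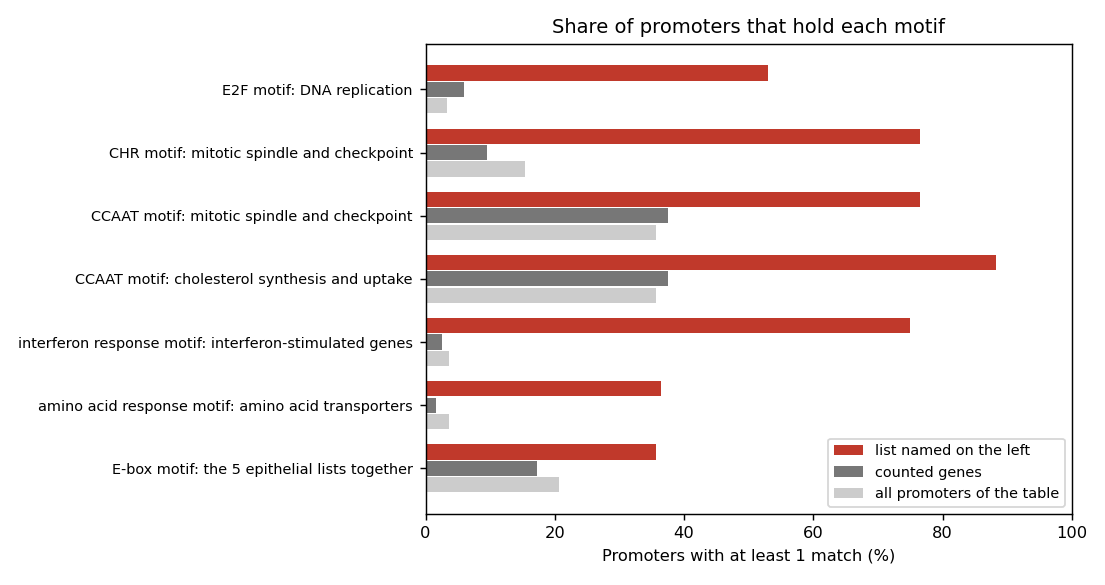
Share of promoters (%) with at least 1 match of a motif, for the gene list named on the left, for counted genes and for all promoters of the table; bars start at 0. The list bar is the longest of each set, at 52.9% for E2F in replication genes and 76.5% for CHR in mitotic genes.

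The highest difference among counted genes was in IFI6, an interferon-stimulated gene of the endoplasmic reticulum. It read 6.81 on the double array, against 1.68 on the PIK3CA array, 2.64 on the Her2 array and 2.15 on the LacZ array. The double array alone was high, and the PIK3CA and LacZ values were near background. The difference was 5.12 log2 units (34.8-fold). SAMD9, an antiviral effector, read 6.53, against 4.63, 5.01 and 4.15, and RIGI, the cytoplasmic RNA sensor, read 4.89, against 3.40, 3.20 and 3.35. IFITM2 and IFITM3, membrane proteins that block virus entry, differed by 2.17 and 1.55. For IFITM2 the PIK3CA array was the low one, at 3.36, against 5.53 on the double array, with 6.08 and 6.37 on the Her2 and LacZ arrays. IFI44L and IFI44, below the filter, differed by 3.57 and 1.74. The 5 counted members of the list were higher, IFI6 passing the filter through its value on the double array, but of 27 measured members 9 were, and 21 were near background on the PIK3CA array. With exchanged labels 3 counted members were higher. ISG15, OAS1, OAS2, IRF7 and BST2 read 0.31 to 2.29 on both arrays compared, and differed by -0.70 to -0.16. Class I antigen presentation showed 1 of 9 counted members higher, B2M, the light chain of class I molecules, at 1.56.

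The interferon response motif was TTTC repeated after a gap of 2 bases of any kind. It lay in 15 of 20 promoters of the interferon list, against 3.65% of all promoters and 2.50% of counted genes. Among counted genes the motif lay in 3.50% of the higher and 1.21% of the lower. The stretches below are from IFI6 (chr1:27672256-27672368, minus strand) and IFI44L (chr1:78620264-78620404, plus strand), and capitals mark the motif, here on the strand where it reads GAAA, a gap and GAAA. IFI6 holds it 3 times and IFI44L 2 times.
IFI6: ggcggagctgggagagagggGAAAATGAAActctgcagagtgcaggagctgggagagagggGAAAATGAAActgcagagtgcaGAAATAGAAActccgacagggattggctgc
IFI44L: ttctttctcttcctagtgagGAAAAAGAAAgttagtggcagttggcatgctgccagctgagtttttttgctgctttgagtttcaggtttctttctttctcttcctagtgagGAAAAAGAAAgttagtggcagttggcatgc

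Matrix and mesenchymal genes were higher for some members only. HAS2, which makes hyaluronan, read 5.86 on the double array, against 1.35 on the PIK3CA array, 4.01 on the Her2 array and 0.98 on the LacZ array. DPT (dermatopontin, a collagen-binding matrix protein) read 7.86, against 3.69, 8.38 and 3.41, and FBN1 (fibrillin, of microfibrils) read 5.65, against 2.12, 4.64 and 2.09. In these 3 genes both arrays labelled with Her2 were high and both without it were low. PTX3, which crosslinks hyaluronan matrix, was likewise high on both arrays labelled with Her2, at 5.28 on the double array and 2.59 on the PIK3CA array, with 6.07 and 2.15 on the Her2 and LacZ arrays. EFEMP1, a fibulin, read 8.06, against 4.80, 6.05 and 5.23. LTBP1, which stores latent TGF-beta, differed by 2.14, and FBLN1 by 1.77.

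LUM and DCN, small proteoglycans that organise collagen fibrils, were high on the double array only. LUM read 6.26, against 0.52, 0.63 and 0.78, and DCN 5.06, against 1.15, 0.57 and 0.73, both below the filter. Their differences of 5.74 and 3.91 have the low side near background. SMOC1, a matricellular protein, and TNC (tenascin) were lower, at -3.08 and -1.19. In all, 5 of 13 counted secreted matrix genes were higher and 2 lower, with a median of 0.88; of 24 measured, 7 were higher and 2 lower. Of 18 measured collagens 0 were at least 2-fold different, but only 2 were counted. Near background were 11 of the 18 on the double array and 13 on the PIK3CA array, where a difference could be missed. COL1A1 read 1.79 on the double array and 2.10 on the PIK3CA array, and COL1A2 read 0.84 and 0.81.

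Fibroblasts also express these matrix genes, so the fibroblast list was read as a whole. Of its 10 measured members 4 were higher (DPT, LUM, DCN and FBLN1) and 0 lower, with a median difference of 0.33. The log2 values of all 10 summed to 36.1 on the double array and 20.98 on the PIK3CA array, and the gap lies mostly in those 4. A sum of log2 values is not a total of signal. Other members of the list, COL1A1, COL1A2, PDGFRB and THY1, were near background on both arrays, at 0.81 to 2.10, and FAP differed by 0.15. Endothelial and leukocyte markers were near background for 9 of 10 measured members on each array. In a bulk sample, fewer cells of a type and less RNA per cell cannot be told apart.

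Of 7 counted EMT genes 4 were higher and 0 lower, with a median of 1.22; of 18 measured, 7 were higher. LOX, which crosslinks collagen, read 7.20 on the double array and 5.29 on the PIK3CA array, with 7.19 and 6.17 on the Her2 and LacZ arrays. AXL, a receptor tyrosine kinase, differed by 1.69. TWIST1 read 5.22, against 3.99, 5.84 and 4.02 on the PIK3CA, Her2 and LacZ arrays, and FN1 (fibronectin) read 10.32, against 9.09, 10.91 and 8.54. Both were thus highest on the Her2 array, and with exchanged labels 1 counted member of the list was higher and these genes turned direction. CDH2, the mesenchymal N-cadherin, was high on the double array alone, at 5.34, against 1.54, 1.67 and 0.97. ZEB1, a repressor of epithelial genes, read 3.36, against 1.76, 1.97 and 1.08. SNAI2 was at like levels, at 9.81 on the double array and 9.74 on the PIK3CA array, and SNAI1 and ZEB2 were near background on both. The VIM probe set was near background on all 4 arrays, at 0.95 to 1.59, and the TAGLN and CNN1 probe sets at 0.98 to 1.65.

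**Figure D3:**
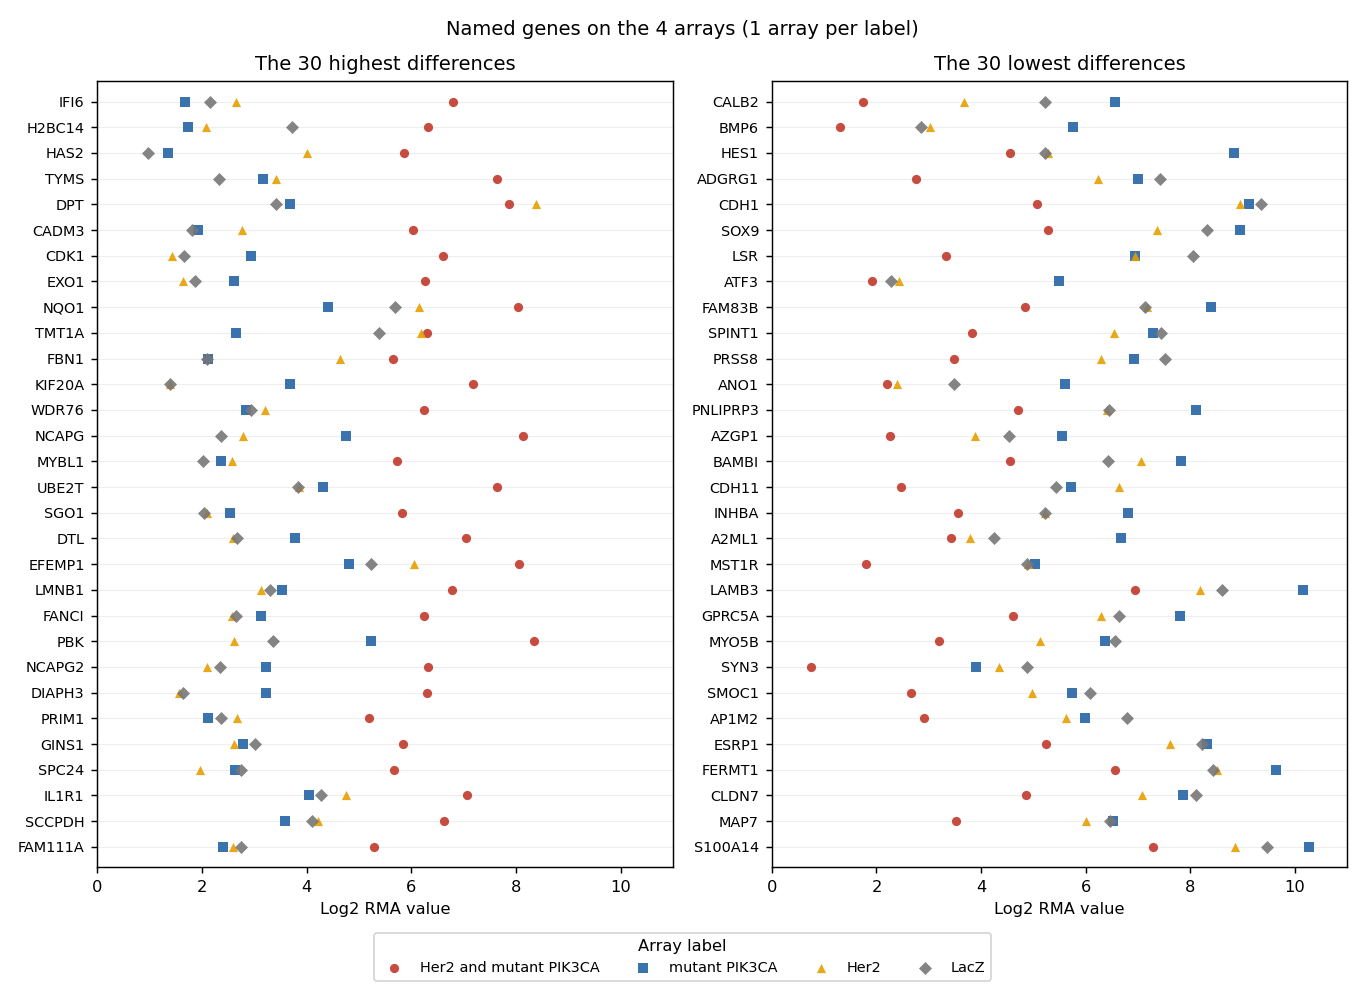
Log2 RMA values on each of the 4 arrays for the 30 genes with the highest and the 30 with the lowest differences, 1 symbol per array. In the left panel the double array (circles) stands to the right of the PIK3CA array (squares), with the Her2 array within 1 log2 unit of the double array for DPT and TMT1A; in the right panel the double array stands to the left, and for HES1, BMP6 and ATF3 the PIK3CA array is the one apart.

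The remaining members of the 30 highest include division genes and others. NQO1, a quinone reductase controlled by NRF2, read 8.05 on the double array, against 4.40 on the PIK3CA array, 6.15 on the Her2 array and 5.68 on the LacZ array, so the PIK3CA array was lowest. Of 11 counted oxidative stress genes 2 were higher, NQO1 and the ferritin light chain FTL (1.46), and 1 lower, SLC7A11 (-1.54). Over all counted genes 8.43% were higher and 7.29% lower. Of 17 measured members 3 were higher, with AKR1C3, below the filter, at 1.05. GCLM, TXNRD1, SRXN1 and GCLC were between -0.47 and 0.30. TMT1A, a thiol methyltransferase, read 6.29 on the double array and 2.65 on the PIK3CA array, with 6.18 and 5.38 on the others, and here the PIK3CA array stood apart. CADM3, an adhesion molecule of the nectin-like family, read 6.04, against 1.93, 2.76 and 1.82. IL1R1, the signalling receptor of interleukin 1, read 7.07, against 4.04, 4.75 and 4.28. LMNB1, a nuclear lamin, differed by 3.25, and DTL, which targets the licensing factor CDT1 for breakdown, by 3.27. MYBL1 (3.37), WDR76 (3.42), DIAPH3 (3.08), NCAPG2 (3.10, a condensin subunit), SCCPDH (3.03) and FAM111A (2.88) complete the set.

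Cholesterol synthesis genes leaned upwards, with 4 of 16 counted members higher, 0 lower and a median of 0.69; of 18 measured, 5 were higher. With the labels of the single-gene arrays exchanged, 10 counted members were higher. HMGCS1, which makes the precursor of mevalonate, read 7.21 on the double array, against 4.76, 3.97 and 3.85 on the PIK3CA, Her2 and LacZ arrays. MVD and IDI1 differed by 1.07 each, SC5D by 1.01 and INSIG1, a sensor of sterols, by 0.73. CCAAT lay in 15 of 17 promoters of this list (88.2%), against 37.5% of counted genes. In fatty acid synthesis 0 of 10 counted members were at least 2-fold different, with ACLY at 0.82, FASN at -0.39 and SREBF1 at -0.81.

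Cell junction genes were frequent on the lower side. CDH1, E-cadherin, read 5.07 on the double array, against 9.13 on the PIK3CA array, 8.94 on the Her2 array and 9.34 on the LacZ array. The double array alone was low, with a difference of -4.06 (16.6-fold) from the PIK3CA array. CDH3 (P-cadherin) read 4.98, against 7.91, 7.55 and 8.22, and JUP (plakoglobin, which links cadherins to the cytoskeleton) read 4.93, against 7.72, 6.99 and 8.23. EPCAM differed by -2.06, while CTNNA1 and CTNNB1, the alpha and beta catenins, were at -0.43 and 0.54. CDH11, a cadherin of mesenchymal cells, read 2.46 on the double array and 5.72 on the PIK3CA array, with 6.63 and 5.43 on the others. In all, 5 of 7 counted cadherin and adherens junction genes were lower and 0 higher, with a median of -2.79; of 10 measured, 5 were lower and 1, CDH2, was higher.

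Tight junction genes of the counted set were lower in 4 of 5 cases, with a median of -2.61. LSR, which recruits tricellular junction proteins, read 3.33 on the double array, against 6.94, 6.94 and 8.05 on the PIK3CA, Her2 and LacZ arrays. CLDN7 and CLDN1, claudins that seal the space between cells, differed by -3.02 and -2.61, and MARVELD2 (tricellulin) by -1.78, while TJP1, a scaffold, was at -0.65. Below the filter most members were near background, and 6 of 13 measured were lower. Of 10 counted desmosome genes 8 were lower and 0 higher, with a median of -1.25; of 13 measured, 8 were lower. With the labels of the single-gene arrays exchanged, 3 of the counted members were lower. DSG3, a desmosomal cadherin, read 6.01, against 8.76, 8.09 and 7.95, DSC2 differed by -2.43 and DSP (desmoplakin) by -2.02. PKP3 and EVPL were at -0.97 and -0.87.

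Genes of apical polarity and polarized trafficking were lower in 10 of 16 counted cases, with 0 higher and a median of -1.32, and in 11 of 19 measured. MYO5B, a motor of recycling vesicles, read 3.19 on the double array, against 6.37, 5.12 and 6.56 on the PIK3CA, Her2 and LacZ arrays. AP1M2, the epithelial adaptor subunit for basolateral sorting, read 2.90, against 5.98, 5.62 and 6.79. CRB3 and LLGL2, an apical and a lateral determinant, differed by -2.72 and -2.67 with the double array near background, and RAB25 by -2.17. PARD3, PALS1 and VAMP8 differed by -0.05, -0.04 and -0.07.

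The epithelial sodium channel and the membrane serine proteases that act on it were lower in 8 of 9 counted cases, with a median of -2.20; of 13 measured, 10 were lower and 0 higher. PRSS8 (prostasin, which cleaves the channel) read 3.48 on the double array, against 6.92, 6.30 and 7.51 on the PIK3CA, Her2 and LacZ arrays. SPINT1, an inhibitor of matriptase and related proteases, read 3.82, against 7.28, 6.55 and 7.44. The channel subunits SCNN1G and SCNN1B differed by -2.20 and -2.07 and SCNN1A by -0.89. FXYD3 (-2.87), a regulator of the sodium pump, ST14 (-1.82, matriptase) and SPINT2 (-1.84) were lower as well. HSD11B2, which keeps cortisol from the mineralocorticoid receptor, differed by -2.50. Among kallikreins, secreted serine proteases, 3 of 5 counted and 3 of 8 measured were lower, KLK7 at -2.92, KLK5 at -2.73 and KLK10 at -1.36.

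Transcription factors and splicing regulators of epithelium were lower in 9 of 10 counted cases, with a median of -1.58, and in 10 of 16 measured. With the single-gene labels exchanged the count was 2, and it was 4 with a mean of at least 5 as the filter and 5 with a value of at least 5 on 1 array. ESRP1, which directs epithelial splicing, read 5.25 on the double array, against 8.31, 7.61 and 8.22 on the PIK3CA, Her2 and LacZ arrays. ESRP2 differed by -1.79, GRHL2 by -1.76, ELF3 by -1.76, KLF4 by -1.63, KLF5 by -1.53, TFAP2A by -1.21, EHF by -1.12 and OVOL2 by -1.06. TFAP2C, at -0.95, was the other counted member. The E-box CACCTG, to which the ZEB and SNAI repressors bind, lay in 7 of 13 polarity, 4 of 9 desmosome, 3 of 11 tight junction, 1 of 5 cadherin and 0 of 4 sodium channel list promoters, 15 of 42 together (35.7%), against 20.6% of all promoters and 17.3% of counted genes. It lay in 26.7% of the lower and 13.8% of the higher counted genes. The cadherin and sodium channel lists have 10 and 13 measured members, and those without a promoter sequence, CDH1 among them, were not searched.

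**Figure D4:**
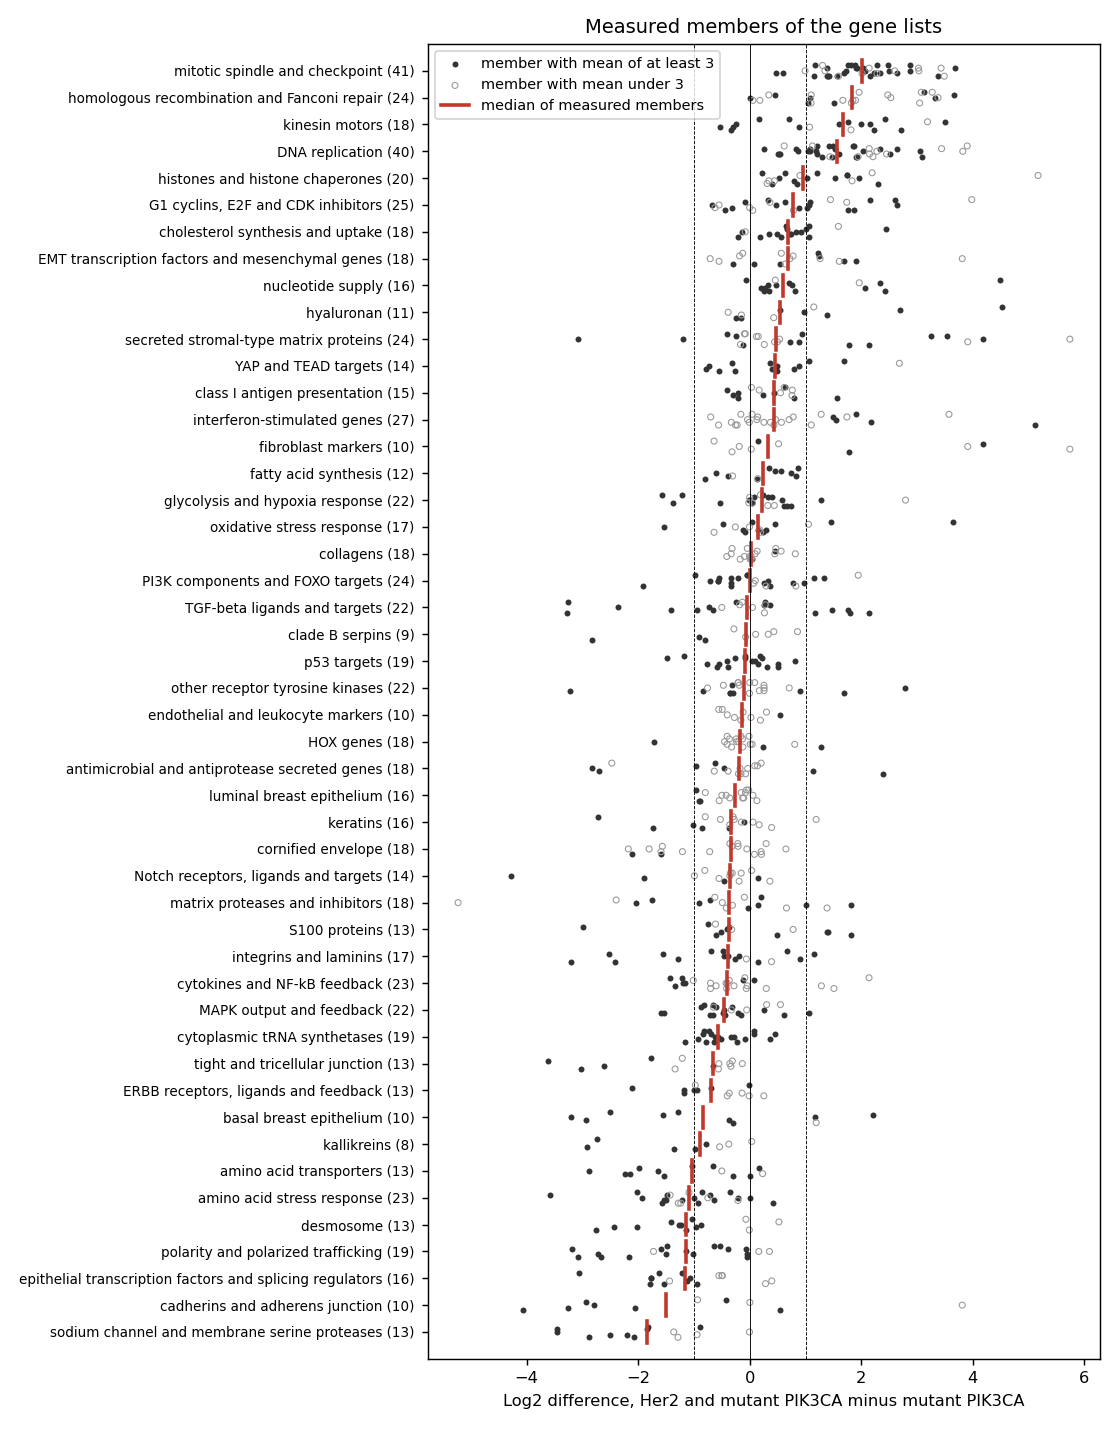
Log2 difference, double array minus PIK3CA array, for each measured member of the 48 gene lists, with filled points for members with a mean of at least 3, open points for the others, a bar at the median and the number of measured members in brackets. The lists are ordered by that median, with mitotic genes at the top (2.01) and the sodium channel and membrane serine proteases at the bottom (-1.84).

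Attachment to the basement membrane was uneven. LAMB3, a chain of the laminin of hemidesmosomes, read 6.94 on the double array, against 10.15 on the PIK3CA array, 8.19 on the Her2 array and 8.61 on the LacZ array, so the double array was lowest and the PIK3CA array highest. ITGB6, ITGA2, ITGA6 and ITGB4 differed by -2.53, -2.41, -1.56 and -1.29, and FERMT1 (kindlin-1, which activates integrins) by -3.06. LAMB1 and LAMC1, chains of other laminins, were at 1.16 and 0.90. Of 15 counted integrins and laminins 5 were lower and 1 higher. Of 10 measured basal epithelial markers of the line, 0 were near background on either array. KRT5 read 7.14 on the double array and 7.52 on the PIK3CA array. KRT14, below the filter, read 3.43 and 2.24 and was higher by 1.19. Of 9 counted basal markers 5 were lower and 2, MME (2.21) and DST (1.18), higher. In the luminal list 0 of 16 measured members were higher or lower. MUC1 read 6.52 on the double array and 7.48 on the PIK3CA array, XBP1 6.02 and 6.92, and GATA3 3.88 and 4.77, while 10 of the 16, ESR1 and PGR among them, were near background on each array. KRT15 and KRT16 differed by -2.73 and -1.73.

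Some genes of amino acid supply were lower and none were higher among those counted. In the amino acid stress response list, built on targets of the factor ATF4, 9 of 17 counted members were lower and 0 higher, with a median of -1.0; of 23 measured, 13 were lower. With the labels of the single-gene arrays exchanged, the counted members lower were 5. ATF3 read 1.91 on the double array, against 5.49 on the PIK3CA array, 2.44 on the Her2 array and 2.28 on the LacZ array. Here the PIK3CA array alone was high. CHAC1, which degrades glutathione, read 5.14, against 7.08, 6.54 and 6.73, and the double array alone was low. PCK2, the mitochondrial PEPCK, differed by -2.02, PHGDH, the first enzyme of serine synthesis, by -1.57, ALDH1L2 by -1.54, TRIB3 by -1.49 and PSAT1 by -1.21. ASNS, asparagine synthetase, lay at the limit with -1.0, and ATF4 itself was at -0.36 and PSPH at 0.00.

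Of 11 counted amino acid transporters 7 were lower and 0 higher, with a median of -1.54; of 13 measured, 7 were lower. SLC7A5, the light chain of the large neutral amino acid exchanger, read 8.27 on the double array, against 11.15, 10.92 and 11.08 on the PIK3CA, Her2 and LacZ arrays. SLC3A2, its heavy chain, read 6.54, against 8.77, 8.61 and 8.56. In both the double array alone was low. SLC1A4 differed by -2.15, SLC6A9 by -1.99, SLC1A5 (the glutamine carrier) by -1.64, SLC7A11 (the cystine exchanger) by -1.54 and SLC7A1 by -1.04. SLC38A1 and SLC38A2 were at -0.66 and -0.29. Cytoplasmic tRNA synthetases had a median of -0.58 over 19 counted members, with 1, MARS1 (-1.17), lower.

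The amino acid response motif TGATGNAA is bound by ATF4 with a C/EBP partner. It lay in 4 of 19 promoters of the stress list (21.1%) and 4 of 11 of the transporter list (36.4%). The shares were 3.67% of all promoters and 1.69% of counted genes. Among counted genes the motif lay in 3.88% of the lower and 1.17% of the higher. Stretches from ATF3 (chr1:212565196-212565255, plus strand) and CHAC1 (chr15:40953242-40953301, plus strand) follow, with the motif in capitals; in CHAC1 it stands on the other strand.
ATF3: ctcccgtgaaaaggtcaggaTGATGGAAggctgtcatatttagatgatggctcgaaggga
CHAC1: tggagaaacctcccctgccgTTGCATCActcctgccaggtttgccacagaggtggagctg

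Signalling genes differed in both directions. HES1, a Notch target, read 4.55 on the double array, against 8.84 on the PIK3CA array, 5.27 on the Her2 array and 5.22 on the LacZ array, so the PIK3CA array alone was high. JAG1, a Notch ligand, differed by -1.90, while NOTCH1 and NOTCH2 were at -0.46 and 0.15. BMP6, a bone morphogenetic protein, read 1.29, against 5.75, 3.02 and 2.86, and again the PIK3CA array stood out. BAMBI, a decoy receptor, INHBA, the activin A subunit, and BMP2 differed by -3.28, -3.25 and -2.37, whereas TGFB1, TGFB2 and the receptors TGFBR3 and TGFBR2 differed by 1.80, 1.76, 1.48 and 1.18. Thus 5 of 16 counted TGF-beta genes were higher and 4 lower, with a median of 0.01.

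Of 7 counted ERBB receptors, ligands and feedback genes 3 were lower and 0 higher, with a median of -0.99. In this list, EGFR read 7.16 on the double array, against 8.35, 8.62 and 8.11 on the PIK3CA, Her2 and LacZ arrays. The ligands HBEGF and EREG differed by -2.12 and -1.19, TGFA by -0.99 and the feedback inhibitor ERRFI1 by -0.94. MST1R, the RON receptor, read 1.81, against 5.03, 4.89 and 4.88, so the double array alone was near background, and MET was at -0.30. KDR, a VEGF receptor, read 4.81, against 2.03, 3.57 and 3.83, a difference of 2.77. Of 17 counted MAPK output genes 1 was higher, DUSP1 at 1.06, and 2 lower, PHLDA1 and DUSP7 at -1.58 and -1.54; the phosphatase DUSP6 was at -0.16. Of 19 counted PI3K components and FOXO targets, BCL6 (1.33) and PIK3R3 (1.15) were higher and TRIB1 (-1.91) lower. These MAPK and PI3K counts lie near the shares over all counted genes, 8.43% higher and 7.29% lower. In the YAP and TEAD target list 2 of 13 counted members were higher, AXL and FJX1 (1.06), and 0 lower, while CCN1 and CCN2 were at -0.26 and 0.41.

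Inflammatory and barrier genes differed in both directions. IL1A read 5.73 on the double array, against 7.08, 5.65 and 4.68 on the PIK3CA, Her2 and LacZ arrays, and NFKBIZ, TNFAIP3, CXCL16 and LIF differed by -1.43, -1.20, -1.22 and -1.16; 5 of 7 counted cytokine and NF-kB genes were lower and 0 higher. With exchanged labels 0 were lower, and IL1A, CXCL16, TNFAIP3 and NFKBIZ turned to higher values. Below the filter, CXCL8, CCL2 and CCL20 were higher, at 2.14, 1.51 and 1.28. MMP1, interstitial collagenase, was the lowest difference of any list member at -5.23, below the filter, and read 2.04 on the double array, against 7.27, 0.87 and 1.29. Here the PIK3CA array alone was high, and MMP10 went the same way at -2.39. MMP2, gelatinase A, differed by 1.81 and read 4.54 on the double array and 2.72 on the PIK3CA array, with 6.78 and 3.92 on the others. S100A14 read 7.28, against 10.26, 8.85 and 9.47, whereas S100A8 and S100A9, the subunits of calprotectin, differed by 1.82 and 1.39. The antiproteases PI3 and SLPI differed by -2.83 and -2.71, and SERPINB1, an inhibitor of neutrophil proteases, by -2.83. In the cornified envelope list 7 of 18 measured members were lower and 0 higher, with SCEL and CASP14 counted, at -2.11 and -1.60.

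Other genes among the 30 lowest belong to none of these groups. CALB2, the calcium-binding protein calretinin, read 1.74 on the double array, against 6.56 on the PIK3CA array, 3.68 on the Her2 array and 5.21 on the LacZ array. SOX9, a progenitor factor of breast epithelium, read 5.27, against 8.94, 7.37 and 8.32. ADGRG1, an adhesion G protein-coupled receptor, read 2.76, against 6.99, 6.24 and 7.43. In these 3 the double array was lowest. ANO1, a calcium-gated chloride channel, read 2.20, against 5.60, 2.40 and 3.47, and there the PIK3CA array was highest and the other 3 were lower by over 2 log2 units. FAM83B, PNLIPRP3, AZGP1, A2ML1, GPRC5A, SYN3 and MAP7 lay between -3.56 and -3.0.

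The Her2 array minus the LacZ array is the other pair in which the labels differ by Her2, and it shares no array with the one above. In that pair the ERBB2 probe set was lower on the array labelled Her2, at 4.29, against 5.96 on the LacZ array. There 217 counted genes were at least 2-fold higher (2.98%) and 178 lower (2.45%). At least 2-fold higher in both pairs were 77 genes, which is 35.5% of the 217 and 12.56% of the 613. At least 2-fold lower in both were 66 genes, 37.1% of the 178 and 12.5% of the 530. Opposite directions were seen in 9 genes higher and 12 lower on the double array. The mitotic and replication lists, with medians of 2.01 and 1.57 over measured members in the mutant PIK3CA background, had medians of 0.03 and -0.01 in the LacZ background. Amino acid transporters had -1.04 and 0.05. Polarity genes had -1.15 and -0.37, the sodium channel and membrane serine proteases -1.84 and -0.90, and kallikreins -0.89 and -1.12. Among counted members, the sodium channel list had 8 and 5 at least 2-fold lower, polarity genes 10 and 7, secreted matrix genes 5 and 6 higher, and EMT genes 4 and 3 higher. The difference between the pairs was not tested. Set against the Her2 array in place of the PIK3CA array, DPT, FN1, TWIST1, PTX3, MMP2, IFITM2 and TGFBR2 read lower on the double array, if in part by less than 2-fold, and MMP1, EHF, CASP14, IL1A, CXCL16, TNFAIP3 and NFKBIZ read higher.

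**Figure D5:**
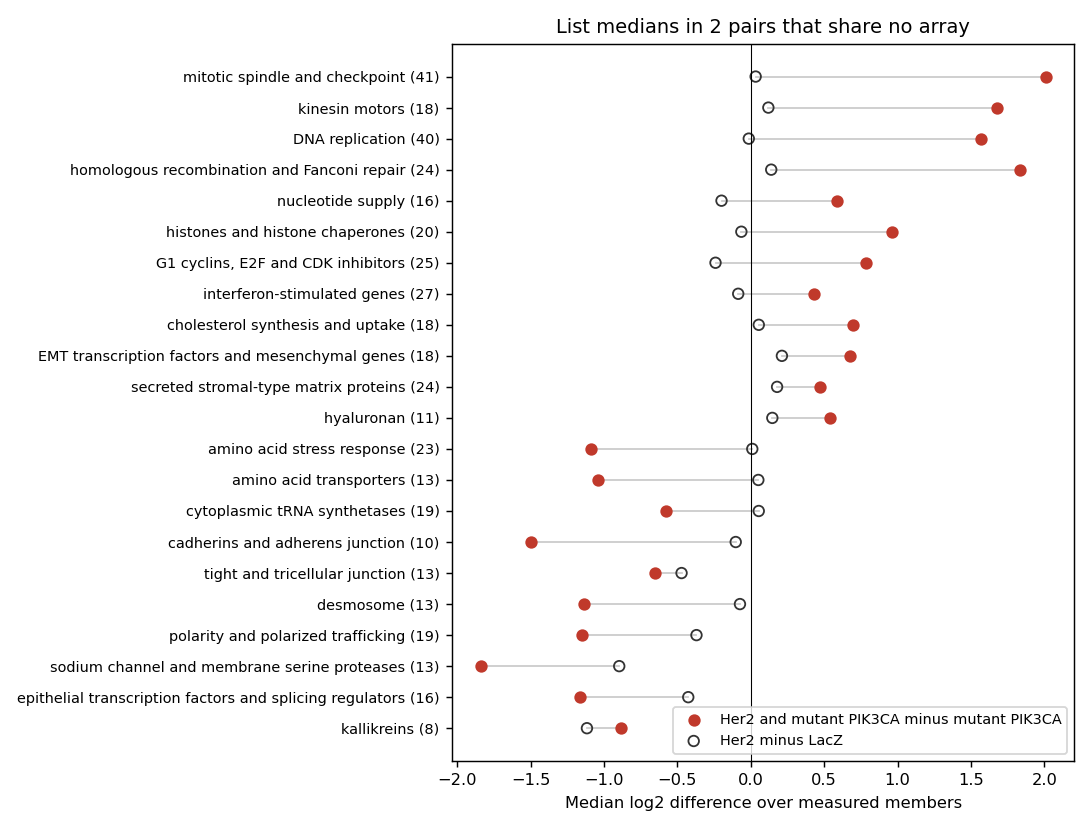
Median log2 difference over the measured members of 22 lists, with the double array minus the PIK3CA array as filled circles and the Her2 array minus the LacZ array as open circles; brackets give the measured members. Filled circles reach 2.01 for mitotic genes and -1.84 for the sodium channel list, where the open circles lie at 0.03 and -0.90.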

How the data were processed

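RNA of 4 MCF10A lines was measured on 1 Affymetrix whole-transcript array each. The authors deposited log2 values per probe set. They used oligo and RMA, per the submitters' processing notes; versions and the definition of probe sets were not given in the sources used here. RMA removes background, puts arrays on 1 distribution and combines the probes of a set. The log base follows from the method and the range of the values. Medians over all 53617 probe sets ran from 1.13 to 1.17, and precision is limited by the number of arrays.

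The platform annotation gave 1 symbol for 23871 probe sets and several for 1842, and left 27904 unnamed here; 90 symbols were updated through RefSeq (GRCh38.p14). The probe set with the highest mean stands for a gene (608 genes had several). Small RNAs, ERBB2 and PIK3CA were left out, and counted genes had a mean of at least 3 over the 4 arrays. Values were subtracted, double minus PIK3CA, with no test. Named genes are the 30 highest and 30 lowest differences among counted genes with characterised symbols, list members and ERBB2 with its neighbours. Uncharacterised symbols would have held 1 place among the highest and 2 among the lowest.

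The members and the 48 gene lists were chosen with earlier results of these data known. The lists hold 921 distinct genes, of which 826 have a probe set with 1 symbol and 488 were counted; the others were not analysed here. Alternatives were other filters, quantile normalization, cyclic loess (limma 3.58.1 in R 4.3.3), the mean of probe sets, small RNAs kept, other thresholds and exchanged labels. Other steps used Python 3.11.15 with pandas 2.3.3. The counting code was run on simulated data with planted differences above the 2-fold limit, which checks the code and not the noise of these arrays.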

Additional observations from a re-analysis of the deposited data

Results flagged for a closer look

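For 13 list members and named genes, the difference of the double array from the PIK3CA array and that of the Her2 array from the LacZ array were both at least 2-fold and of opposite sign. With 1 array a group, the difference between the pairs was not tested.

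Division genes were among them. TOP2A, the topoisomerase that untangles chromosomes, differed by 2.23 in the mutant PIK3CA background and by -1.22 in the LacZ background. MKI67 differed by 1.81 and -1.21, and CDC20, an activator of the anaphase-promoting complex, by 1.14 and -1.29. The histone genes H2BC14 and H1-4 differed by 4.59 and -1.65, and by 1.53 and -1.47. SAA1, an acute phase protein, differed by 2.38 and -1.04, and MVD, of the mevalonate route, by 1.07 and -1.01.

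The other genes were lower in the mutant PIK3CA background and higher in the LacZ background. CDH11 differed by -3.26 and 1.21. SCEL and CASP14, of the cornified layer, differed by -2.11 and 1.91, and by -1.6 and 1.88. TIMP3 and MMP3, an inhibitor and a protease of the matrix, differed by -2.04 and 2.18, and by -1.75 and 1.07. SLC7A11, the cystine exchanger, differed by -1.54 and 1.29.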

How the results depend on the processing

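No paired analysis was possible because each group has 1 array. Quantile normalization, cyclic loess and the mean of all probe sets kept every count within 1.5 times of the value given, and of 516 differences 11 crossed the 2-fold limit under each of the first 2 and none turned. The 2-fold counts were 1094 higher without a filter, 188 and 264 higher and lower with a mean of at least 5, 1323 and 1243 at 1.5-fold, and 240 and 195 at 3-fold. The share of higher genes among those past 2-fold was 53.6%, 60.3% without a filter and 41.6% with a mean of at least 5. With a mean of at least 5, members higher were 6 in mitosis, 1 in kinesins, 6 in replication, 1 in nucleotide supply, 0 in recombination repair, 3 in histones, 2 in G1 genes, 2 in interferon genes, 2 in cholesterol synthesis and 3 in secreted matrix. Members lower were then 6 in polarity, 5 in the sodium channel list, 4 in epithelial factors and 1 in cytokines, because fewer genes pass. Without a filter, 19 recombination repair, 9 interferon and 7 EMT genes were higher. With a value of at least 5 on 1 array, 3 interferon genes were higher, and 5 epithelial factors and 3 cytokine genes lower. With the labels of the single-gene arrays exchanged, 512 and 379 genes were higher and lower, and list counts became 3 for recombination repair, 3 for interferon genes, 10 for cholesterol synthesis and 1 for EMT (higher), and 5 for amino acid stress, 3 for desmosomes, 2 for epithelial factors and 0 for cytokines (lower). Of 854 differences, 30 then turned direction and 122 crossed the 2-fold limit. Turned to lower were DPT (-0.52), AKR1C3 (-0.52), TWIST1 (-0.62), FN1 (-0.59), MMP2 (-2.25), C3 (-0.48), IFITM2 (-0.54), TGFBR2 (-0.14), HOXA2 (-0.45) and PTX3 (-0.78). Turned to higher were SLC2A1 (0.12), HK2 (0.067), CLDN4 (0.66), EPS8L1 (0.36), PRSS22 (0.21), GRHL1 (0.17), EHF (0.13), MMP1 (1.17), KRT10 (0.43), SPRR1A (0.12), SPRR1B (1.79), CASP14 (0.87), LCE3D (0.86), MUC16 (0.073), IL1A (0.086), IL1RN (0.24), CXCL16 (0.030), TNFAIP3 (1.36), NFKBIZ (0.11) and BHLHE40 (0.30). The cause was not tested. Signal near background limits genes such as IFI6, LUM and BMP6, whose lower value is uncertain.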

Other observations

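In the glycolysis and hypoxia list, 1 of 15 counted genes was at least 2-fold higher on the double than on the PIK3CA array and 3 were lower. The higher one was P4HA1, a collagen prolyl hydroxylase of the hypoxia response, at 1.27, and ALDOC, an aldolase below the filter, differed by 2.79. SLC2A1, the main glucose transporter, differed by -1.57, NDRG1 by -1.38 and HK2 by -1.21, and the first and last of these turned direction with the single-gene labels exchanged. PKM, GPI and ALDOA were at 0.07, -0.01 and 0.05. In the HOX list, 18 members were measured and 3 counted, with HOXA2 at 1.27 and HOXB9 at -1.72. HOXB9 read 2.07 on the double array, against 3.79, 4.83 and 5.75 on the PIK3CA, Her2 and LacZ arrays. SAA1 and C3, secreted proteins of the acute phase, differed by 2.38 and 1.13.

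Genes of chromosome 19 leaned to lower values. Of its 500 counted genes 71 were at least 2-fold lower (14.2%) and 28 higher (5.60%), with a median difference of -0.24. The medians of the other chromosomes lay between -0.09 and 0.13. Chromosome 5, with 338 counted genes, had 13 lower (3.85%) and 34 higher (10.1%).

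The balance of directions moved with the mean level of a gene. Among 2010 counted genes with a mean of 3 to 4, 12.64% were at least 2-fold higher and 6.62% lower, and among 278 genes with a mean of 8 to 13, 2.88% were higher and 8.27% lower. The part of signal level and of chromosome in the list results was not tested.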
